A study of Mus musculus with 6 samples.

Results

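The genes described here lie on the distal part of mouse chromosome 4, on both sides of *Pax7*, and had changed RNA levels in muscle stem cells (MuSCs) without the RNA-binding protein Quaking (QKI). They are the rows of the authors' table of changed genes whose locus starts at or beyond 110 Mb on chromosome 4 of the GRCm38 build, with predicted genes, unnamed clones and pseudogenes left out. This gave 35 of the 398 genes in the table. All 35 are protein-coding, 17 on the plus strand and 18 on the minus strand. *Pax7* itself, at chr4:139737062-139833528, is not in the table, so its level was not analysed here. The members were chosen by position from a table selected on the contrast described below, so their values are given as a description, with no test.

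PAX7 is a paired-box transcription factor that marks MuSCs and is needed to maintain them in adult muscle. Because it is expressed in these cells, the *Pax7* gene is a common place for an inducible Cre recombinase. QKI binds RNA at short ACUAA-containing elements and regulates the splicing, stability and translation of its targets. The genes around *Pax7* have no common function. They include zinc finger proteins, surface receptors, matrix proteins, metabolic enzymes and sarcomere proteins.

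Both groups carried *Qk* alleles with loxP sites around exon 2 (QKI 2lox/2lox) on a C57BL/6 background, and mice of both groups received 4-hydroxytamoxifen daily for 5 days. Each group had 3 biological replicates, and the number of mice per replicate is not stated. The QKI-cKO mice also carried Pax7-CreERT2, a tamoxifen-activated Cre expressed from the *Pax7* locus, whereas the QKI-ctrl littermates had only wild-type *Pax7* alleles. The Cre allele on chromosome 4 and the loss of QKI therefore always occurred together, and their parts in any difference near *Pax7* cannot be told apart. An age of 6 to 8 wk is stated both for the injections and for cell purification, and males and females were mixed in either group. MuSCs were sorted 10 d after the last injection as ITGA7+, CD45-, CD11b- and Sca1- cells and kept in culture for 72 h before sequencing of polyadenylated RNA. The authors' table gives 1 FPKM value (a read count scaled to transcript length and to library size) per gene and group. Its header does not name the groups, and which column is QKI-cKO was taken from contractile genes that the study names as lower there, so all directions given here rest on that assignment. It holds no value per replicate, so that no SD can be given, the spread between replicates is not known here, and the depth is unknown. In bulk RNA of this kind, fewer cells of a type and less RNA per cell cannot be told apart. The targeted gene *Qk*, on chromosome 17, is listed at 128 FPKM in QKI-ctrl against 262 FPKM in QKI-cKO. Exons outside the deleted exon 2 also count in this value, so it does not check the deletion. The paper reports that RT-qPCR on the sequenced MuSCs showed the deletion. It also reports loss of QKI staining in MuSCs on cultured myofibers of QKI-cKO mice. Of 10 markers of MuSCs and myoblasts, *Itga7* (237 and 145 FPKM) and *Vcam1* (67.1 and 44.9 FPKM) are in the table, with the QKI-ctrl value first here and in all pairs below, and the levels of the others were not analysed here.

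The highest and the lowest log2 ratio of the set belonged to *Zfp992* and *Zfp984*, which with *Zfp991* are members of a cluster of similar zinc finger genes and lie 6.62 to 7.92 Mb from *Pax7* on the telomere side. Their sequences are shown because they bear on how reads were assigned. The following are stretches of 150 bases of the coding sequence, on the sense strand, from GENCODE transcripts of GRCm38, with capitals at the 12 positions where the copies are not all alike.
Zfp992: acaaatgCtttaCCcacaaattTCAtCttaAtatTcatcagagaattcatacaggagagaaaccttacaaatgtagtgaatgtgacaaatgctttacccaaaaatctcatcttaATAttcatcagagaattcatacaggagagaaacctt
Zfp991: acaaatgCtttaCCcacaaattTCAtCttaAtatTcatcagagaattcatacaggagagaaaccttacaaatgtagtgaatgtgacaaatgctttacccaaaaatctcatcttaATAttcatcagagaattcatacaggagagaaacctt
Zfp984: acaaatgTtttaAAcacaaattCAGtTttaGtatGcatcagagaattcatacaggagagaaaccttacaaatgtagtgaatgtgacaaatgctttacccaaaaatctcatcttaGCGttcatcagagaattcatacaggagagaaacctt
*Zfp992* and *Zfp991* are alike at every base of this stretch, and all 3 genes have 79 bases in common between their differing positions. Over 2493 aligned transcript bases, *Zfp992* and *Zfp991* were 99.3% identical, with a longest common stretch of 484 bases. *Zfp984* was 91.3% identical to *Zfp992* and 91.5% identical to *Zfp991*. The libraries were read in 100 bp from each end of a fragment. Of the 100-base words in its transcripts, *Zfp991* shared 70.3% with some other gene, *Zfp984* 30.9% and *Zfp992* 28.6%. For the other 32 members no 100-base word was found in a second gene. The values of these 3 zinc finger genes are therefore uncertain, since a fragment from 1 copy can be counted for another.

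**Figure D1:**
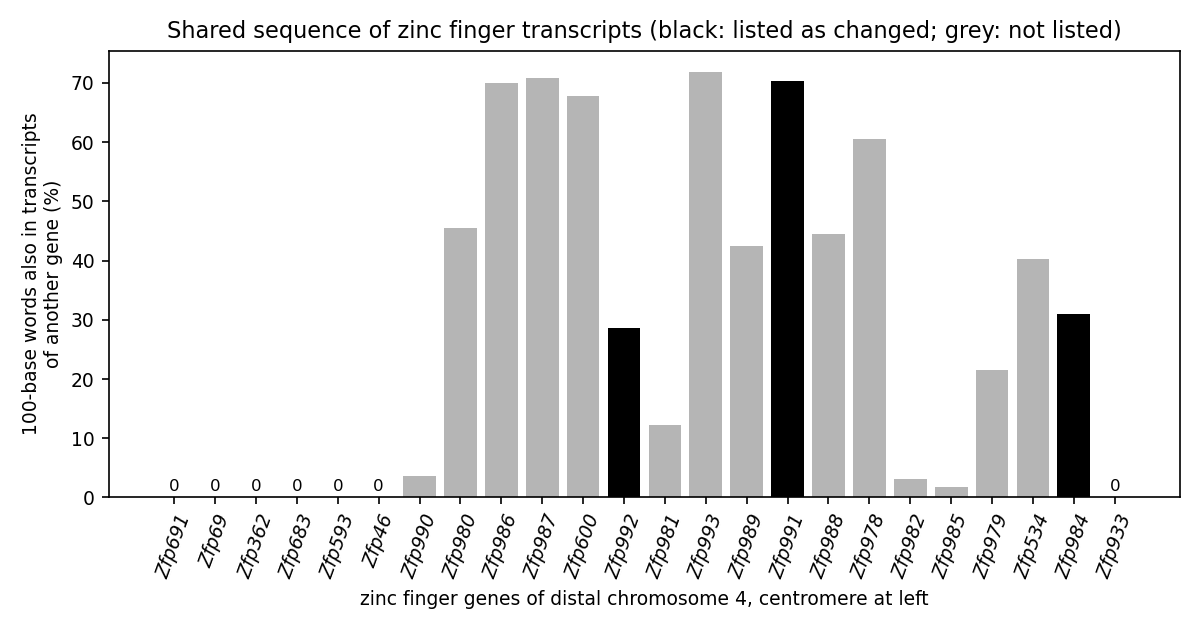
Share of the 100-base words of each gene's transcripts that also occur in transcripts of another gene (vertical axis, percent), for the 24 annotated *Zfp* genes of distal chromosome 4 in order from the centromere, with black bars for genes in the authors' table and grey bars for the others. *Zfp991*, *Zfp984* and *Zfp992* share 70.3%, 30.9% and 28.6%, while *Zfp69* and *Zfp362*, also in the table, share none.

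The share of genes listed as changed was higher around *Pax7* than in the rest of the genome. Of 335 annotated protein-coding genes within 10 Mb of *Pax7*, 24 were in the table (7.16%, exact 95% binomial interval 4.64 to 10.5%). On the other numbered chromosomes and X, it was 283 of 20428 genes (1.39%, interval 1.23 to 1.56%). These intervals cover counting of genes only and treat genes as independent, which neighbours need not be, and no test was made because the region was chosen with its gene number known. All annotated genes are counted, whether or not they are expressed in these cells. Between 5 and 10 Mb on the telomere side the share was 13.4% (9 of 67 genes, interval 6.33 to 24.0%). The listed genes of this step include *Zfp992*, *Zfp991* and *Zfp984*, whose values are uncertain. In the other steps within 20 Mb it lay between 4.41 and 6.10%. Between 20 and 30 Mb on the centromere side, 0 of 138 genes were listed, which allows a share of up to 2.17% by the limit of 3 counts and 2.64% by the exact interval. Farther in that direction it was 1.64% (10 of 609 genes). All 35 members lie within 20 Mb of *Pax7*, from *Akr7a5* at 0.419 Mb to *Zfp69* at 18.8 Mb. They were not direct neighbours, since at least 1 other protein-coding gene lies between any member and the next.

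**Figure D2:**
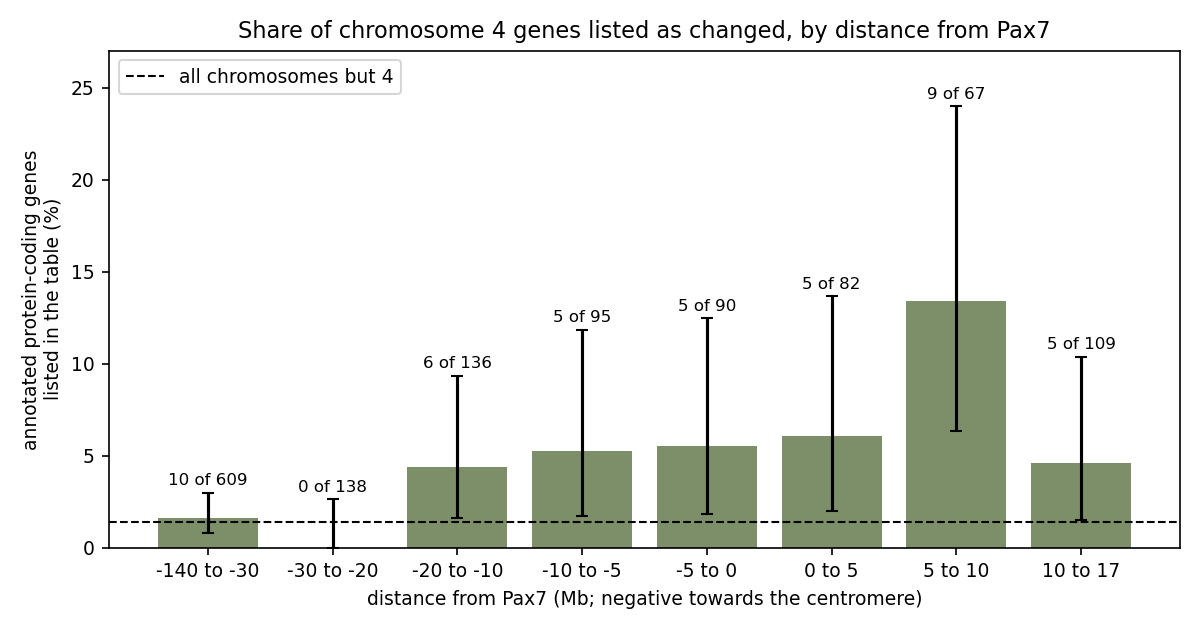
Share of annotated protein-coding genes of chromosome 4 that are in the authors' table (vertical axis, percent), by distance of the gene from *Pax7* in Mb (horizontal axis, negative towards the centromere), with exact 95% binomial intervals as error bars and the numbers of genes above them. The dashed line is the 1.39% of the other numbered chromosomes and X. The step from 5 to 10 Mb on the telomere side is the highest at 13.4%. That step includes *Zfp992*, *Zfp991* and *Zfp984*, whose values are uncertain.

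Over the whole set, 21 members showed more RNA in QKI-cKO and 14 showed less. Among all 398 genes of the table, 57.3% were higher and 42.7% lower, and for the members these shares were 60.0 and 40.0%. At least 1.5-fold higher were 11 members (31.4%), beside 25.6% of the table, and at least 1.5-fold lower were 6 members (17.1%), beside 26.6%. At least 2-fold higher were 4 members (11.4%), beside 8.54% of the table, and at least 2-fold lower were 5 members (14.3%), beside 10.8%. The median log2 ratio of QKI-cKO over QKI-ctrl was 0.40 in the members and 0.36 in the table. Without regard to direction, the median change was 1.49-fold in the members and 1.52-fold in the table. The members were thus near the whole table in direction and in median size of change. That table includes the members and also predicted genes, clones and pseudogenes. Among its 298 other genes with these left out, 61.1% were higher and the median change was 1.46-fold. Past 2-fold were 42 of the 298 (18 higher and 24 lower), beside 9 of the 35 members. Without the clustered zinc finger genes it was 6 of 32 members. The summed FPKM of all 35 was 706 in QKI-ctrl and 738 in QKI-cKO, with 358 and 502 FPKM for the genes that were higher and 347 and 236 FPKM for those that were lower.

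**Figure D3:**
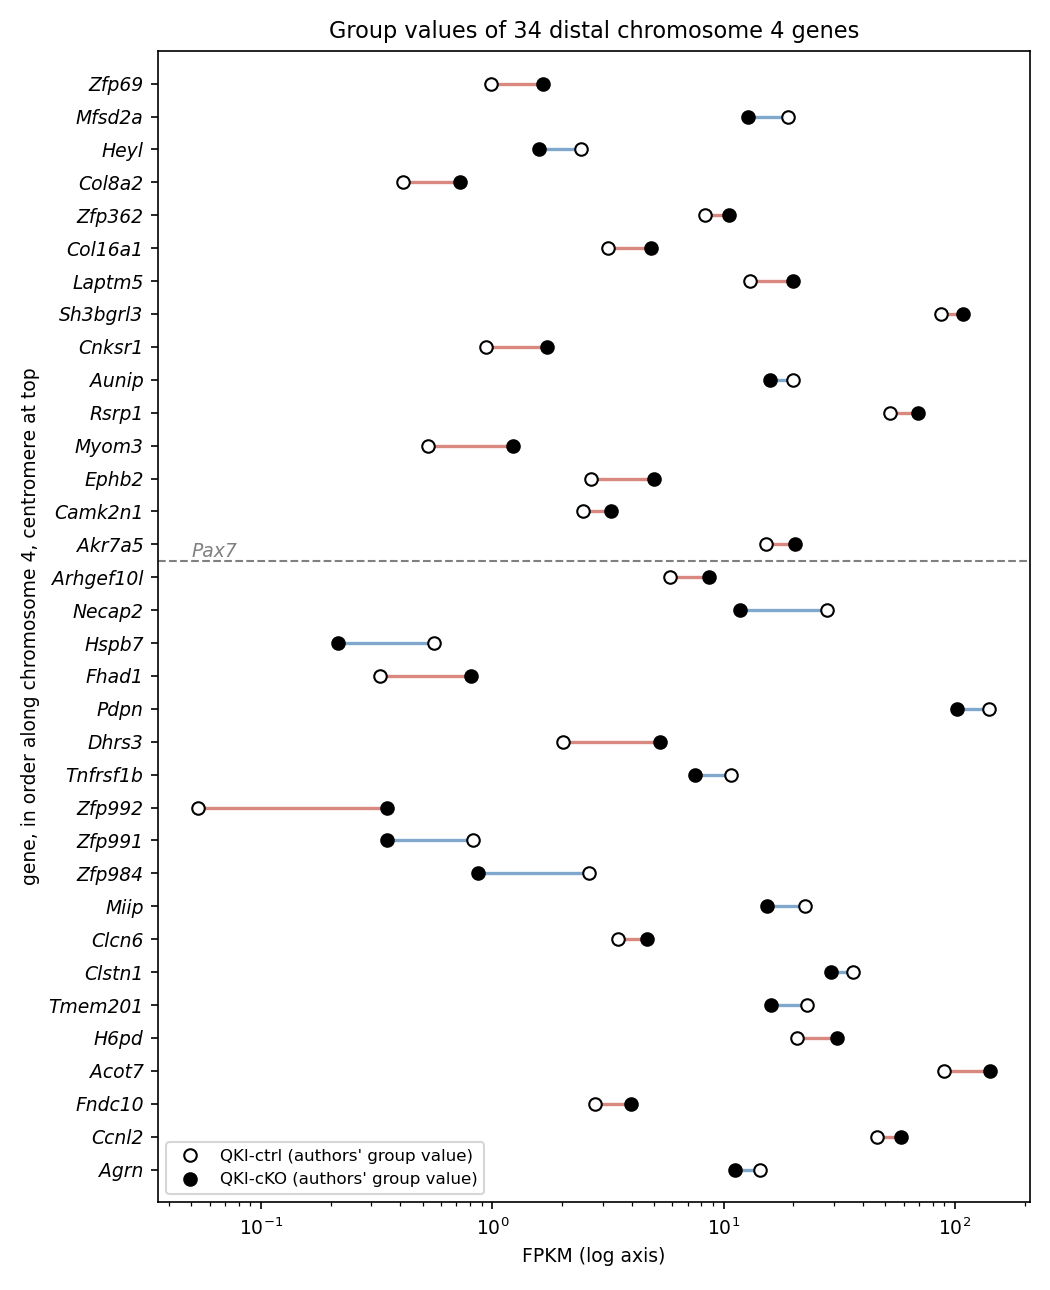
Authors' FPKM value of 34 of the 35 genes (horizontal axis, log scale) in QKI-ctrl (open circles) and QKI-cKO (filled circles), in order along chromosome 4 with the centromere at the top. Red lines join the values of genes that were higher in QKI-cKO and blue lines those of genes that were lower, and the longest line is that of *Zfp992*, from 0.0533 to 0.352 FPKM.

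The members are ordered below by role for description only. Apart from the gene lists with a stated size, these groups are no fixed lists, and nothing is read from the direction of a group. The zinc finger genes were listed in both directions. C2H2 zinc finger proteins form the largest family of mammalian transcription factors, and many of those with a KRAB domain silence transposable elements. *Zfp992* (ENSMUSG00000070605.4, chr4:146449023-146470292, plus strand) was listed at 0.0533 FPKM in QKI-ctrl versus 0.352 FPKM in QKI-cKO, a ratio of 6.60 and a log2 ratio of 2.72. Its near-identical copy *Zfp991* (ENSMUSG00000067916.9, chr4:147132038-147180579, plus strand) went the other way, from 0.827 FPKM in QKI-ctrl to 0.350 FPKM in QKI-cKO, a log2 ratio of -1.24. *Zfp984* (ENSMUSG00000078495.10, chr4:147753974-147809788, minus strand) was at 2.61 FPKM in QKI-ctrl compared with 0.863 FPKM in QKI-cKO, which is 3.02-fold lower and a log2 ratio of -1.59. *Zfp992* had the highest and *Zfp984* the lowest log2 ratio of the 35 genes. Added together, *Zfp992* and *Zfp991* were at 0.881 FPKM in QKI-ctrl against 0.702 FPKM in QKI-cKO, a log2 ratio of -0.33. FPKM is scaled to length, and the longest protein-coding transcripts differ (4550 bases for *Zfp992* and 2813 bases for *Zfp991*). The sum is therefore no count of the pair's fragments, and whether these changed was not tested. All 3 genes were below 3 FPKM in both groups. The file's locus for *Zfp984* is wider than its annotated gene.

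Outside the cluster, 2 more zinc finger genes were listed, and both were higher in QKI-cKO. *Zfp69*, a KRAB zinc finger gene linked to obesity-associated diabetes in mice, was at 0.988 FPKM in QKI-ctrl versus 1.66 FPKM in QKI-cKO (log2 ratio 0.75). *Zfp362* was at 8.28 FPKM in QKI-ctrl compared with 10.6 FPKM in QKI-cKO (log2 ratio 0.36). Of the 24 annotated *Zfp* genes of distal chromosome 4, 5 were thus in the table, 3 of them higher and 2 lower. The 5 include the 3 clustered genes, whose values are uncertain. Of all 716 annotated protein-coding genes of distal chromosome 4, 35 were in the table (4.89%), and no difference between these shares was tested. *Heyl*, a basic helix-loop-helix repressor induced by Notch, was 1.52-fold lower, at 2.42 FPKM in QKI-ctrl against 1.59 FPKM in QKI-cKO. Of 19 genes in a list of Notch ligands, receptors and targets, the other one in the table was *Hes6*, a HES family member that promotes myogenic differentiation, with 249 FPKM in QKI-ctrl versus 314 FPKM in QKI-cKO.

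*Rsrp1*, which encodes an arginine- and serine-rich protein, was at 52.4 FPKM in QKI-ctrl compared with 69.2 FPKM in QKI-cKO (log2 ratio 0.40). *Ccnl2*, whose product cyclin L2 acts with CDK11 kinases in transcription and splicing, was at 45.9 FPKM in QKI-ctrl against 58.7 FPKM in QKI-cKO (log2 ratio 0.35).

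Among surface receptors and cell contact proteins, *Ephb2* was higher in QKI-cKO. *Ephb2* encodes a receptor tyrosine kinase for ephrin-B ligands, which guides cells and axons through contact. It was at 2.67 FPKM in QKI-ctrl versus 5.02 FPKM in QKI-cKO (1.88-fold higher). Of 22 Eph receptors and ephrins, *Ephb6*, a receptor without kinase activity, was the other one in the table, at 1.85 FPKM in QKI-ctrl compared with 2.54 FPKM in QKI-cKO.

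*Tnfrsf1b*, the second receptor of tumour necrosis factor, was at 10.8 FPKM in QKI-ctrl versus 7.55 FPKM in QKI-cKO (log2 ratio -0.51). Of 28 receptors of that family, *Tnfrsf19* was also lower (1.34 and 0.822 FPKM) and *Ngfr*, the low-affinity neurotrophin receptor, was higher (5.53 and 10.2 FPKM). *Pdpn* encodes podoplanin, a mucin-like glycoprotein of lymphatic endothelium and stromal cells that promotes motility, and had the highest QKI-ctrl value of the set with 141 FPKM, beside 102 FPKM in QKI-cKO (log2 ratio -0.46). *Clstn1*, whose product calsyntenin 1 links membrane cargo to kinesin motors, was at 36.2 FPKM in QKI-ctrl compared with 29.1 FPKM in QKI-cKO (log2 ratio -0.32). *Fndc10*, a membrane protein with a fibronectin type III domain, was higher, at 2.79 FPKM in QKI-ctrl against 3.96 FPKM in QKI-cKO (log2 ratio 0.51).

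Membrane proteins of transport and organelles were divided. *Mfsd2a*, the carrier that brings lysophosphatidylcholine with omega-3 fatty acids into cells, was at 18.9 FPKM in QKI-ctrl versus 12.8 FPKM in QKI-cKO (log2 ratio -0.56). *Tmem201*, a protein of the inner nuclear membrane, was at 22.8 FPKM in QKI-ctrl compared with 16.0 FPKM in QKI-cKO (log2 ratio -0.51). *Clcn6*, a chloride-proton exchanger of late endosomes, was higher, at 3.49 FPKM in QKI-ctrl against 4.65 FPKM in QKI-cKO (log2 ratio 0.41). *Laptm5*, a lysosomal membrane protein of blood cells, was 1.54-fold higher, at 12.9 FPKM in QKI-ctrl versus 19.9 FPKM in QKI-cKO. It is one of 15 macrophage and leukocyte markers, of which 5 were in the table. *Gpnmb* (3.15 and 4.56 FPKM) and *Lgals3* (50.4 and 63.7 FPKM) were higher with it, and *Ctsc* (1.21 and 0.653 FPKM) and *Lgmn* (17.7 and 12.0 FPKM) were lower. The sum of the 5 was 85.4 FPKM in QKI-ctrl compared with 101 FPKM in QKI-cKO. Defining markers such as *Ptprc*, *Adgre1* and *Csf1r* are not in the table, which holds only genes called changed, so their levels are not known here. The part of other cells in the value of *Laptm5* was not tested.

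Both collagen genes among the members were higher, and agrin was lower. *Col8a2* encodes a short-chain collagen known from the basement membrane of the corneal endothelium and was at 0.411 FPKM in QKI-ctrl against 0.726 FPKM in QKI-cKO (1.77-fold higher). *Col16a1*, a fibril-associated collagen, was at 3.15 FPKM in QKI-ctrl versus 4.87 FPKM in QKI-cKO (1.55-fold higher). *Agrn* encodes the heparan sulphate proteoglycan that clusters acetylcholine receptors at the neuromuscular junction, and it was at 14.4 FPKM in QKI-ctrl compared with 11.2 FPKM in QKI-cKO (log2 ratio -0.36). Of 59 collagen and basement membrane genes, these 3 were the only ones in the table.

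*Dhrs3* (ENSMUSG00000066026.14, chr4:144892827-144928209, plus strand) encodes the reductase that turns retinaldehyde back into retinol and so limits retinoic acid. It was 2.62-fold higher, at 2.02 FPKM in QKI-ctrl against 5.28 FPKM in QKI-cKO. Of 24 genes of retinoid metabolism, *Cyp26b1*, which degrades retinoic acid, was the other one in the table and was also higher (7.17 and 9.28 FPKM). *Acot7*, a thioesterase that cleaves long-chain acyl-CoA, had the highest QKI-cKO value of the set, with 142 FPKM beside 89.8 FPKM in QKI-ctrl (1.58-fold higher). *H6pd* encodes the hexose-6-phosphate dehydrogenase of the endoplasmic reticulum, which makes NADPH there, and was at 20.7 FPKM in QKI-ctrl versus 30.8 FPKM in QKI-cKO (log2 ratio 0.57). Of 12 genes of the pentose phosphate pathway, *Tkt* (66.2 and 189 FPKM) and *Pgls* (58.7 and 74.9 FPKM) were higher as well, and *Prps1* was lower (75.1 and 59.7 FPKM). *Akr7a5*, an aldo-keto reductase of reactive aldehydes, is the member nearest to *Pax7* and was at 15.2 FPKM in QKI-ctrl compared with 20.3 FPKM in QKI-cKO (log2 ratio 0.42).

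The members with a role in the sarcomere pointed apart, at low levels. *Myom3* encodes a myomesin, which crosslinks thick filaments at the M band, and was 2.33-fold higher, at 0.526 FPKM in QKI-ctrl against 1.23 FPKM in QKI-cKO. *Hspb7*, a small heat shock protein of heart and skeletal muscle that protects the sarcomere, was 2.60-fold lower, at 0.557 FPKM in QKI-ctrl versus 0.214 FPKM in QKI-cKO. Of 24 genes of the M line, the thick filament and small heat shock proteins, 6 were in the table, with *Myom3* the only one that was higher. The lower ones beside *Hspb7* were *Mybph* (2.05 and 0.212 FPKM), *Myh3* (2.26 and 0.565 FPKM), *Myh1* (1.02 and 0.534 FPKM) and *Myom2* (0.309 and 0.0620 FPKM), none of them on chromosome 4. *Mybph* and *Myh3* are among the genes from which the groups were assigned, so their direction was fixed in advance.

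*Necap2* (ENSMUSG00000028923.14, chr4:141066512-141078357, minus strand) encodes a clathrin adaptor partner that acts in endosomal recycling. It was 2.38-fold lower, at 28.0 FPKM in QKI-ctrl compared with 11.7 FPKM in QKI-cKO. *Arhgef10l*, an exchange factor for small GTPases and the nearest member on the telomere side, was at 5.88 FPKM in QKI-ctrl against 8.62 FPKM in QKI-cKO (log2 ratio 0.55). *Cnksr1*, a scaffold of Ras signalling, was 1.84-fold higher, at 0.939 FPKM in QKI-ctrl versus 1.73 FPKM in QKI-cKO. *Camk2n1*, an inhibitor of calcium/calmodulin-dependent kinase II, was at 2.46 FPKM in QKI-ctrl compared with 3.27 FPKM in QKI-cKO (log2 ratio 0.41).

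*Aunip*, whose product binds Aurora A kinase and ninein at the centrosome, was at 19.97 FPKM in QKI-ctrl against 15.8 FPKM in QKI-cKO (log2 ratio -0.34). *Miip*, known as an inhibitor of cell migration and invasion, was at 22.6 FPKM in QKI-ctrl versus 15.4 FPKM in QKI-cKO (log2 ratio -0.55). *Fhad1*, which encodes a protein with a forkhead-associated domain, was 2.48-fold higher, at 0.326 FPKM in QKI-ctrl compared with 0.808 FPKM in QKI-cKO. *Sh3bgrl3*, a small thioredoxin-like protein, was at 87.3 FPKM in QKI-ctrl against 108 FPKM in QKI-cKO (log2 ratio 0.31), the smallest change of the 35. *Sh3bgrl3* overlaps *Ubxn11* on the other strand. Whether strand was used in counting is not given in the sources used here, so the value of *Sh3bgrl3* is uncertain. Annotated genes that are not protein-coding overlap *Acot7*, *Zfp991* and *Zfp984* on the same strand. On the other strand such genes overlap *Acot7*, *Zfp991*, *Zfp992*, *Fhad1* and *Clcn6*. The part of these overlaps in the values was not tested. The file's loci for *Fhad1* and *Sh3bgrl3* are wider than the annotated genes.

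Directions were also counted by side of *Pax7*. Of all genes in the table, 57.3% were higher. Within 10 Mb on the centromere side, 9 of 10 members were higher in QKI-cKO, *Aunip* being the exception, with a median log2 ratio of 0.52. Within 10 Mb on the telomere side, 5 of 14 were higher and 9 lower, with a median log2 ratio of -0.49. Without the 3 clustered zinc finger genes, 4 were higher and 7 lower there. Farther than 10 Mb this order was not seen, with 3 of 6 members higher on the centromere side and 4 of 5 on the telomere side. Over whole sides, 12 of 16 members were higher on the centromere side and 9 of 19 on the telomere side. Among the named genes of chromosome 4 below the limit of the set, 9 of 10 were higher. The counts by side were made after the values had been read, and no difference between them was tested. From *Rsrp1* to *Arhgef10l*, 6 members in order along the chromosome were higher, a run that crosses *Pax7*. From *Zfp362* to *Cnksr1*, 5 were higher, and from *H6pd* to *Ccnl2*, 4 were higher. Of the 9 members past 2-fold, 7 lie within 10 Mb on the telomere side, a stretch that holds 14 of the 35 members. *Myom3* lies on the centromere side. The 7 include *Zfp992*, *Zfp991* and *Zfp984*, whose values are uncertain, and without these it was 4 of 11 members in that stretch. Of those 4, *Hspb7* and *Fhad1* were below 1 FPKM in both groups. In the whole table, 77 of 398 genes were past 2-fold. Over the 35 genes, the Spearman correlation between distance from *Pax7* and size of the log2 ratio was -0.17.

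**Figure D4:**
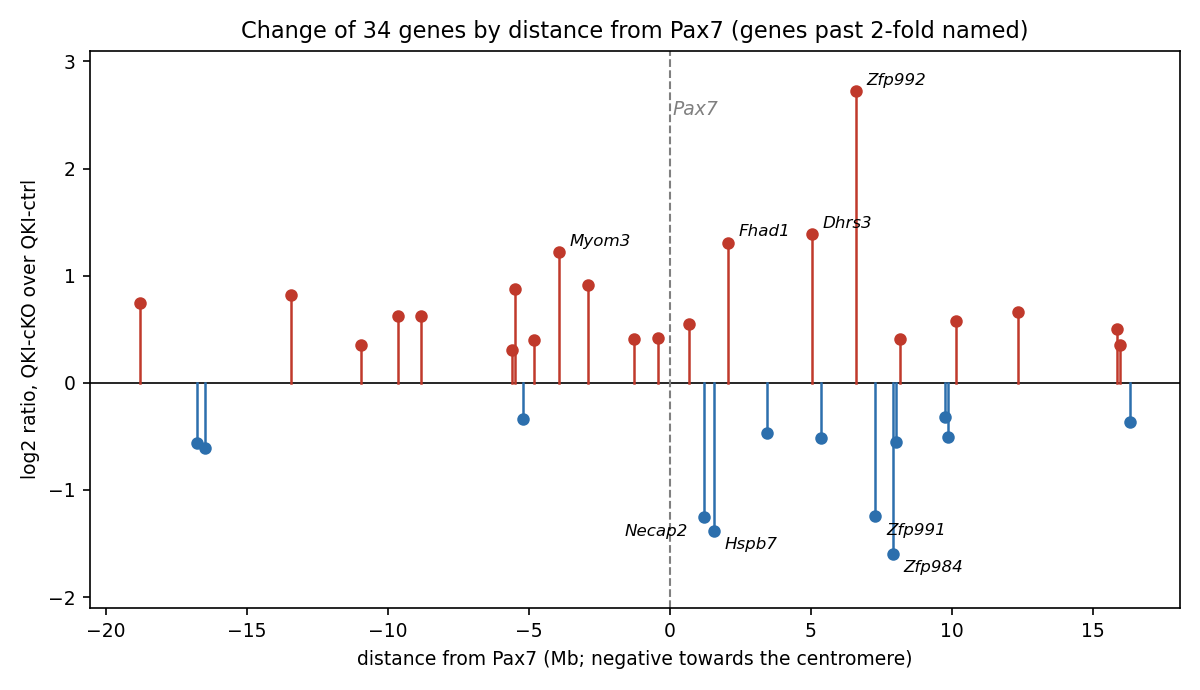
Log2 ratio of QKI-cKO over QKI-ctrl FPKM (vertical axis) of 34 of the 35 genes by distance from *Pax7* in Mb (horizontal axis, negative towards the centromere), red for higher and blue for lower in QKI-cKO, with the genes past 2-fold named. Within 10 Mb, 9 of 10 genes on the centromere side are above 0 and 9 of 14 on the telomere side are below it.

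Large ratios were found mainly at low levels. All 5 members below 1 FPKM in both groups (*Zfp992*, *Zfp991*, *Hspb7*, *Fhad1* and *Col8a2*) were past 1.5-fold. In the whole table, 54 of 56 genes below 1 FPKM in both groups were past it. Of the 12 members at 20 FPKM or more in their higher group, 3 were past 1.5-fold, among them *Acot7*, which was higher, and *Necap2*, which was lower. Of all genes in the table at that level, it was 23 of 107. The Spearman correlation between the FPKM of the higher group and the size of the log2 ratio was -0.57 over the 35 genes and -0.62 over the 394 genes of the table not listed at 0. The points share the same 6 libraries. The smallest log2 ratio in the table, without regard to direction, was 0.53 for genes below 1 FPKM in both groups and 0.29 for genes at 20 FPKM or more. The table holds only genes marked significant, and the part of this selection in the link between level and ratio was not tested. *Necap2* had the lowest log2 ratio, -1.25, of all 107 genes of the table at or above 20 FPKM in either group.

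**Figure D5:**
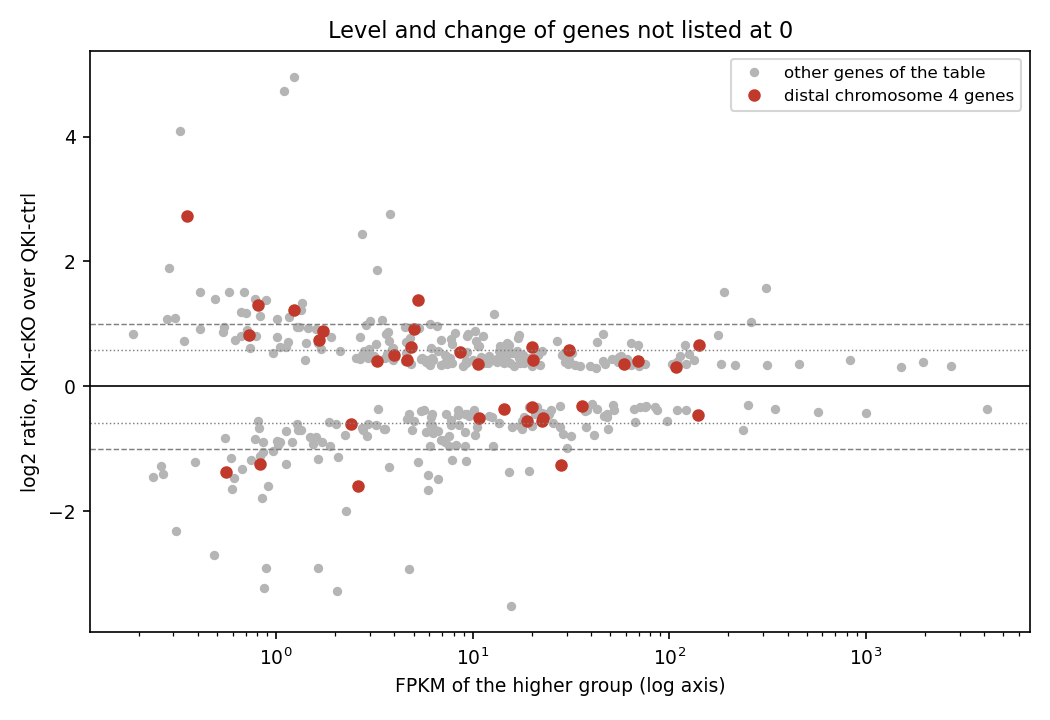
Log2 ratio of QKI-cKO over QKI-ctrl (vertical axis) against the FPKM of the higher group (horizontal axis, log scale) for 34 of the 35 distal chromosome 4 genes (red) and the other genes of the authors' table not listed at 0 (grey), with dotted lines at 1.5-fold and dashed lines at 2-fold. *Necap2* (28.0 FPKM in QKI-ctrl) is the lowest point among genes of 20 FPKM or more.

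Transcripts of the members were searched for the QKI element, since QKI is the protein removed. The core searched was ACTAAC or ACTAAT in DNA letters, on the sense strand of the longest protein-coding transcript. Introns were not searched, although the study reports such elements in the introns beside many exons with changed splicing. It was found in 14 of 35 members (40.0%), beside 44.1% of the other protein-coding genes of the table and 43.4% of all annotated protein-coding genes. Per kilobase there were 0.174 cores in the members, 0.211 in the other protein-coding genes of the table and 0.241 in all protein-coding genes. Protein-coding genes of distal chromosome 4 that are not in the table had fewer than the members, with a core in 32.1% and 0.158 cores per kilobase. *Ephb2* had 5 cores, the most of any member, in a transcript of 10902 bases. A core with a nearby TAAC or TAAT, the full bipartite element, was found in 3 members (8.57%), beside 9.49% of the other protein-coding genes of the table, 9.90% of all protein-coding genes and 5.15% of the distal chromosome 4 genes not in the table. The 3 elements all lie in annotated 3′ UTRs and are shown on the sense strand with both parts in capitals.
Mfsd2a, chr4:122946937-122946949, minus strand: ACTAATtaaTAAC
Heyl, chr4:123249701-123249727, plus strand: ACTAATctttattacatacttgtTAAT
Zfp992, chr4:146468643-146468663, plus strand: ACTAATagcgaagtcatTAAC
*Mfsd2a* and *Heyl* were lower and *Zfp992* was higher in QKI-cKO. A match is a description of the letters and does not show binding.

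Promoters from RefSeq on GRCm38.p6, 300 bases around a transcript start, were matched for 27 members (33 promoters) and searched on both strands for 4 motifs. The CCAAT box (CCAAT) was in 57.6% of the members' promoters, beside 37.4% of all 32851 promoters and 32.3% of those of other genes in the table. The GC box (GGGCGG) was in 60.6%, beside 35.7 and 57.7%. The E box CAGCTG, a form bound by myogenic basic helix-loop-helix factors, was in 27.3%, beside 16.3 and 20%. The TATA motif (TATAAA) was in 1 promoter (3.03%), beside 13.6 and 11.0%. The promoters of *Zfp984*, the member with the lowest log2 ratio, and of *Laptm5*, the only one with TATAAA, are shown with matches on either strand in capitals.
Zfp984, chr4:147809739-147810038, minus strand: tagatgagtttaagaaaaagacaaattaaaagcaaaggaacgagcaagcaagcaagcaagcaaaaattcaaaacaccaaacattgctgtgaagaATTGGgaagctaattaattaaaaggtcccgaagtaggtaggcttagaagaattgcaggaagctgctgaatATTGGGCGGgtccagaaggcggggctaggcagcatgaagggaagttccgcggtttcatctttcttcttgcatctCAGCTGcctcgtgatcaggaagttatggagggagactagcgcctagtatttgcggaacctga
Laptm5, chr4:130913066-130913365, plus strand: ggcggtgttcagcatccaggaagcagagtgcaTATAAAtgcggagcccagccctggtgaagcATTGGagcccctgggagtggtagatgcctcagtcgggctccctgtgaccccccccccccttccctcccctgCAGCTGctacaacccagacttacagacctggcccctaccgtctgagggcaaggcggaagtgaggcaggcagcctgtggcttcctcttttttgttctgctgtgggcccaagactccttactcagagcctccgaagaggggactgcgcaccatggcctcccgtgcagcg
In the *Zfp984* promoter a CCAAT box on the opposite strand overlaps a GC box. The *Zfp984* promoter holds 9 CG dinucleotides and so does that of *Laptm5*, beside medians of 13 in the members' promoters, 17 in those of the other genes of the table and 7 in all promoters.

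The limit of the set lies in a stretch of chromosome 4 without listed genes. The first members inside it are *Zfp69* at 120930137 and *Mfsd2a* at 122946850. The nearest listed genes outside it are the predicted *Gm49890* at 88909855 (8.40 FPKM in QKI-ctrl versus 6.11 FPKM in QKI-cKO) and, among named genes, *Akna* at 63367125 (2.57 and 3.88 FPKM).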

How the data were processed

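RNA of sorted and cultured MuSCs, from 3 biological replicates of either group, was sequenced as stranded, polyadenylated, paired-end libraries. According to the methods, the authors used Trimmomatic for trimming, STAR for alignment to mm10/GRCm38, and the Cufflinks suite for the comparison of groups. The deposited FPKM values were scaled by the authors with geometric means of fragment counts and pooled into 1 value per gene and group. Only genes marked significant are in the table. The paper also states limits on the log fold change. As worded there, they exceed the smallest log2 ratio in the table (0.29) and the members' median (0.57), both without regard to direction. Its header does not name the groups. The first column was taken as QKI-ctrl and the second as QKI-cKO, because the contractile genes *Myl1*, *Myl4*, *Myh3*, *Sspn* and *Mybph*, named by the study as lower in QKI-cKO, are lower in the second. The authors' own fold changes, test statistics, p-values and q-values were not used. There were 0 unused columns of single samples.

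The log2 ratio of both FPKM values was computed without a pseudocount, and a gene counted as called at 1.5-fold. Without values per replicate, no test was made, and depth and precision are unknown. All 398 gene IDs were found in GENCODE vM21, which gave coordinates (counted from 1) and transcripts. Distances run from the nearest edges of both loci. Sequence words of 100 bases were compared across transcripts of all genes. Intervals are exact binomial (Clopper-Pearson). Counts cover all 35 members. Of them, 1 is not reported here and 34 are named and plotted, with more detail for those past 1.5-fold, at 100 FPKM or more, or nearest to *Pax7*. The members and gene lists were chosen with earlier results of these data known. The counts of directions and folds and the rule for members were tested on simulated data, and the other steps were not. Software was Biopython 1.88, matplotlib 3.10.9, scipy 1.17.1, numpy 2.4.6 and pandas 2.3.3 under Python 3.11.15. Alternatives were pseudocounts, filters on FPKM, other limits on fold and distance, all gene types, and leaving out the zinc finger cluster, the last for the sides of *Pax7* chosen after seeing the data.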

Additional observations from a re-analysis of the deposited data

How the results depend on the processing

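No paired analysis was possible because the table holds 1 value per group and no value per replicate, and for the same reason no replicate could be left out. No alternative turned the direction of the median. The direction of a member could not turn, since a pseudocount keeps the order of both values and the other alternatives change no value. With a pseudocount of 1 FPKM, 4 members were at least 1.5-fold higher and 3 at least 1.5-fold lower, the median log2 ratio was 0.32 and the median size of the log2 ratio 0.45. With a minimum of 1 FPKM in either group these medians were 0.38 and 0.55. With a minimum of 5 FPKM, 11 members were higher, 4 at least 1.5-fold higher and 2 at least 1.5-fold lower, with medians of 0.31 and 0.51. With 2-fold as the limit, 4 members were higher. Without the zinc finger cluster the medians were 0.41 and 0.56. Within 5 Mb of *Pax7* lay 10 members. Over all gene types, 4.10% of annotated genes within 10 Mb of *Pax7* were in the table, beside 0.669% on the other numbered chromosomes and X. The number of members was 29 with a lower limit of 130 Mb and 39 with predicted genes kept, and 35 members lay within 20 Mb of *Pax7*. Counts in the other alternatives were within 1.5 times those reported, such as 4 members at least 1.5-fold lower without the zinc finger cluster. The 3 clustered zinc finger genes may share reads, and low FPKM values rest on few fragments of unknown number.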

Other observations

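The rule on symbols left out 4 listed genes of distal chromosome 4. The pseudogene *Znf41-ps*, which holds 56.9% of the 100-base words of *Zfp991*, was at 0.547 FPKM in QKI-ctrl against 0.308 FPKM in QKI-cKO. Added to *Zfp992* and *Zfp991*, the sum was 1.43 FPKM in QKI-ctrl versus 1.01 FPKM in QKI-cKO. This sum too is no count of fragments, since FPKM is scaled to length. The long noncoding RNA gene *2810405F17Rik* was at 0.290 and 0.663 FPKM, the pseudogene *Eef2-ps2* at 2.93 and 1.92 FPKM, and the unclassified transcript *Gm37795* at 4.13 and 6.90 FPKM, in QKI-ctrl and QKI-cKO respectively. With them the set had 39 genes.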
